A study of Mus musculus with 20 samples.

Results

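Matrix metalloproteinases (MMPs) and the ADAMTS enzymes are zinc-dependent proteases that cut proteins of the extracellular matrix, and the tissue inhibitors of metalloproteinases (TIMPs) bind their active sites and block them. The genes described here are all those whose symbol is Mmp, Timp or Adamts followed by a number and at most 1 letter. On the arrays 37 such genes had a probe set of their own, namely 18 MMP, 15 ADAMTS and 4 TIMP genes, of 18193 genes in all. Each was represented by its probe set with the highest mean over the arrays.

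MMPs and ADAMTS enzymes are made as inactive precursors, and their activity is set by removal of the propeptide, by inhibitors and by clearance. Membrane-type MMPs sit on the cell surface, where they open a path for migrating cells and activate secreted MMPs. Several ADAMTS enzymes cut the lecticans, the large proteoglycans that fill the space between brain cells. In the brain these enzymes are known for their part in progenitor migration, in remodelling of the matrix around neurons and in the spread of glioma cells. RNA levels do not show how much active enzyme is present.

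Cell lines of glial progenitors from mouse brain gave the RNA, and each of 20 samples was hybridised to its own Affymetrix array, in 4 groups of 5. These were embryonic progenitors after transduction, which the labels call a genetic modification, embryonic control progenitors, postnatal progenitors after transformation, and postnatal control progenitors. The labels used here give no strain, age in days, brain region, introduced sequence or transforming agent, and they do not say how many separate cultures or clones the 5 samples of a group came from. If they were repeats of 1 culture, the p-values would cover technical spread alone.

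Values are the deposited linear signals. Levels of different genes were not compared, because each probe set binds with its own strength. A gene counts as above background on an array where its signal passed the level below which 95% of 27 bacterial control probe sets lay on that array. This level was between 107 and 221. Log2 changes are differences of log2(signal + 16), given with their standard error from limma, which was fitted over all genes and arrays. "Called" means a Benjamini-Hochberg adjusted p under 0.05 over all genes and a change of at least 2-fold. A number in parentheses after a log2 change and its standard error is that adjusted p. The change after transduction is called the embryonic response and that after transformation the postnatal response.

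The arrays held marks that move with the groups. The signal of Mki67, which dividing cells express, was 27555 to 34283 on embryonic transduced and 32101 to 37623 on embryonic control arrays. All postnatal transformed arrays were low, at 3848 to 5403, and so were arrays 4 and 5 of postnatal control, at 5929 and 4351, while control arrays 1 to 3 had 37266, 34816 and 35822. The postnatal response therefore sets 5 arrays low in Mki67 against a control group that holds both kinds, and without control arrays 4 and 5 it sets low against high arrays throughout; the part of this in the members' changes was not tested. The fit was repeated without these 2 arrays, and for the genes described with their signals that value is given wherever a call or a direction of a postnatal change differed or the change moved by over 1.5 times. The log2 ratio of 3' to 5' Gapdh probe sets, a sign of RNA quality, ran from -0.35 to -0.26 in embryonic transduced, -0.43 to -0.32 in embryonic control, -0.59 to -0.48 in postnatal transformed and -0.51 to -0.41 in postnatal control cells. For the beta-actin gene Actb this ratio was 0.39 to 0.45, 0.30 to 0.35, 0.23 to 0.32 and 0.20 to 0.29 in the same order. By Actb the embryonic groups did not overlap. Of 8 glial progenitor markers, 7 were above background on all 5 arrays in embryonic transduced cells and all 8 in each other group, against 63.1% to 65.4% of all genes. In the embryonic response 4 were called lower, against 5.74% of all genes, and in the postnatal one 1 was called higher, against 9.56%. Those lower were Pdgfra (log2 change -3.70 ± 0.19), Fabp7 (-1.88 ± 0.067), Cspg4 (-1.77 ± 0.17) and Sox10. Mean signals of Sox10 were 189 ± 105 in transduced cells, above background on 2 of 5 arrays, and 2601 ± 703 in embryonic control (SD, n = 5 each). Of 10 microglia and macrophage markers, which come from cells rich in MMPs, 2 were above background on all 5 arrays in embryonic transduced, 2 in embryonic control, 2 in postnatal transformed and 1 in postnatal control cells, and Aif1, Itgam, C1qa and Fcgr3 were on no array of any group. Csf1r was above background on all 5 arrays of each group, and Cd68 on 5, 5, 5 and 4 in the same order. In this list 2 genes were called higher in the embryonic response and 1 in the postnatal one, against 8.61% and 9.56% of all genes, and none lower. Cd68 was called in both (log2 change 1.31 ± 0.21, limma adjusted p = 2.49e-05, and 1.23 ± 0.21, 4.51e-05), and the other gene was Itgam. The summed signal of this list was 2174 to 3684 in embryonic transduced, 1277 to 1812 in embryonic control, 1535 to 1901 in postnatal transformed and 1124 to 1595 in postnatal control cells. For 8 meningeal fibroblast markers these sums were 3176 to 3754, 2004 to 3257, 1783 to 2732 and 612 to 1469.7, and for 8 endothelial and pericyte markers 1066 to 1976, 959 to 1566, 857 to 1524 and 408 to 1109, in the same order of groups. On all 5 arrays, 3, 4, 2 and 1 of the fibroblast markers and 1, 0, 1 and 0 of the endothelial ones were above background, again in that order. Single genes made up most of the difference between the fibroblast sums. Foxc1 averaged 1979 ± 105 in transduced and 142 ± 92.5 in embryonic control cells, while the other 7 markers had lower means in transduced cells, with a median log2 change of the list of -0.64. In postnatal cells Foxc1 averaged 526 ± 110.3 after transformation and 61.2 ± 56.5 in control, and Islr 876 ± 102 and 202 ± 69.0 (SD, n = 5 each). Collagen gene Col1a1 was on no postnatal transformed array above background, and the endothelial marker Pecam1 on no array of any group. The part of these marks in the results was not tested. In such bulk samples, fewer cells that make a transcript and less of it per cell cannot be told apart.

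Not all of the genes could be detected. Of the 37 genes, 25 were above background on all 5 arrays of at least 1 group, against 71.7% of all genes, and 15 on all 20 arrays, against 56.3%. In embryonic transduced, embryonic control, postnatal transformed and postnatal control cells, 21, 21, 18 and 19 genes were above background on all 5 arrays, where 63.2%, 63.6%, 65.4% and 63.1% of all genes were. Mmp12, the macrophage metalloelastase, and Adamts19 were above background on no array, against 5.53% of all genes.

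**Figure D1:**
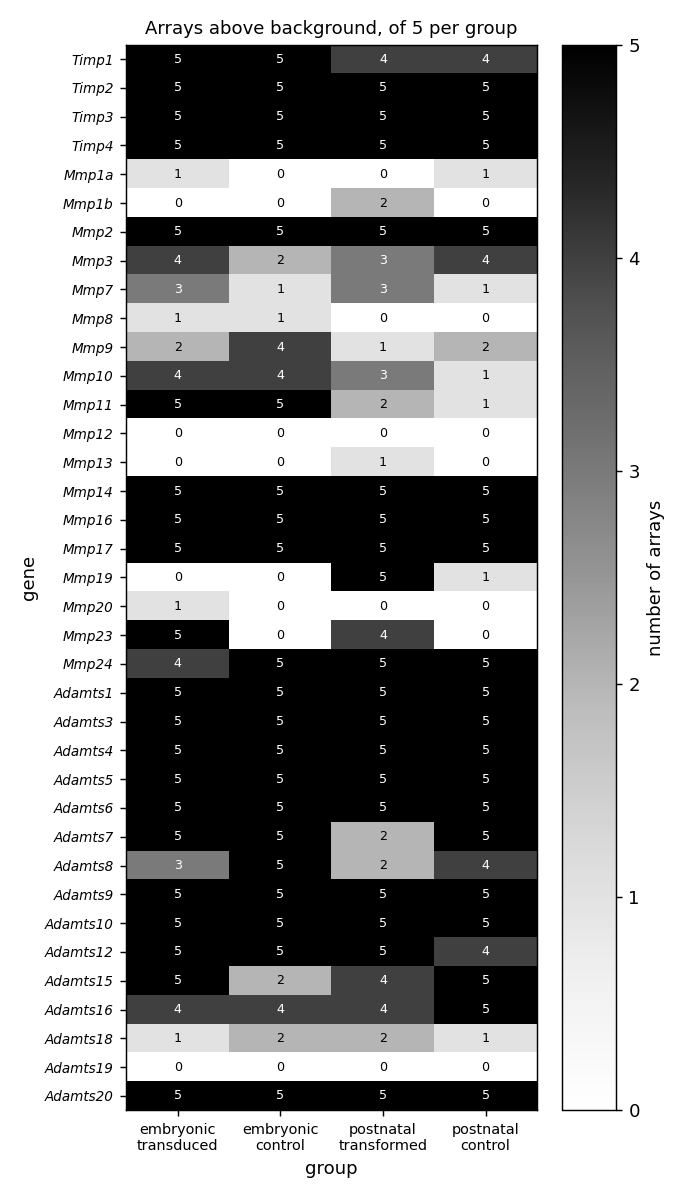
Number of arrays, of 5 per group, on which each of the 37 genes lay above background (rows, genes; columns, groups; darker cells, more arrays). Mmp12 and Adamts19 have 0 in every group, and 15 genes have 5 in every group.

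Mmp13, Mmp12, Mmp1b, Mmp3, Mmp1a, Mmp10, Mmp8, Mmp20 and Mmp7 lie together on chromosome 9, in this order by RefSeq, with 1 other protein-coding gene, between Mmp8 and Mmp20. Mmp8, Mmp13 and the Mmp1a and Mmp1b pair were listed as collagenases, a group named for cutting fibrillar collagen. The others encode 2 stromelysins, which have a wide range of substrates (Mmp3 and Mmp10), the metalloelastase Mmp12, the enamel protease Mmp20 and matrilysin (Mmp7). None of these 9 genes was above background on all 5 arrays of any group, none was called in either response, and of their 180 array values 41 passed the background. The signals ran from 4.85 to 565 with a median of 67.6. Those most often above background were Mmp3, on 4, 2, 3 and 4 arrays of embryonic transduced, embryonic control, postnatal transformed and postnatal control cells, and Mmp10, on 4, 4, 3 and 1.

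The promoters of this cluster differ from those of the other genes in the short motifs they hold, and they are shown here for that reason. RefSeq promoters of 300 bases (250 before to 50 after the annotated start, build GRCm38.p6) were at hand for 23 of the 37 genes. Both strands were searched for TGANTCA, the motif of the AP-1 transcription factors, for the TATA box TATAAA and for the GC box GGGCGG, and no motif of these 3 overlaps another in the sequences shown. The AP-1 motif was in 8 of 9 cluster genes, all but Mmp8, and in 0 of 14 others, against 7.81% of 32851 promoters. TATAAA was in 9 of 9 cluster genes and in 1 of 14 others, Adamts1, against 13.6% of all. The GC box was in 0 cluster genes and in 12 of 14 others, against 35.7%. A gene counted where any of its promoters held the motif, while the shares over all are of single promoters. These measures can differ for a gene with several promoters. The counts describe letters in a window and do not show a factor binding. Capitals in the sequences mark the motifs. The first pair are cluster genes near background in every group, the next 3 are genes that were called in a response.
Mmp3, chr9:7445572-7445871, plus strand: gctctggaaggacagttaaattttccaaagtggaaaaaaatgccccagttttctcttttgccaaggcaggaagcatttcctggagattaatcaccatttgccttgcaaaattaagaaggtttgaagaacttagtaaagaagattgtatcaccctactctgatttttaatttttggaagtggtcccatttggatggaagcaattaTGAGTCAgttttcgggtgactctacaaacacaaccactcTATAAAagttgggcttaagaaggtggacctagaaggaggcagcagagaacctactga
Mmp13, chr9:7272264-7272563, plus strand: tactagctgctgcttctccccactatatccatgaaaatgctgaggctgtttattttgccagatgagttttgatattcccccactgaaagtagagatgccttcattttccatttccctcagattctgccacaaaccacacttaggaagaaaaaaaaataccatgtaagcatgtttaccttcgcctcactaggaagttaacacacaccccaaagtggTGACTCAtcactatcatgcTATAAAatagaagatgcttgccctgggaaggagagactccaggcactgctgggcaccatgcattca
Timp1, chrX:20869916-20870215, plus strand: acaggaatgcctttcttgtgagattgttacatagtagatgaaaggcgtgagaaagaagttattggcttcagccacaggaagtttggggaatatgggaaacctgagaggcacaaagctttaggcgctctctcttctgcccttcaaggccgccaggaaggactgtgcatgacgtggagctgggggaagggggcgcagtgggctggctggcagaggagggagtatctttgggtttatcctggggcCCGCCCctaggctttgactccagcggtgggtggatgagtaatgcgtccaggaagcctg
Mmp14, chr14:54431348-54431647, plus strand: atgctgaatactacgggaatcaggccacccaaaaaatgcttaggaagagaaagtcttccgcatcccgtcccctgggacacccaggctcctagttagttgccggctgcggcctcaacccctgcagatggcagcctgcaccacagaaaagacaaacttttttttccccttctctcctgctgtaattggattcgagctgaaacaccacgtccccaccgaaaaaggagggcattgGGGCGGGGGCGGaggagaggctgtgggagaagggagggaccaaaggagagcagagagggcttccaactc
Adamts1, chr16:85803064-85803363, minus strand: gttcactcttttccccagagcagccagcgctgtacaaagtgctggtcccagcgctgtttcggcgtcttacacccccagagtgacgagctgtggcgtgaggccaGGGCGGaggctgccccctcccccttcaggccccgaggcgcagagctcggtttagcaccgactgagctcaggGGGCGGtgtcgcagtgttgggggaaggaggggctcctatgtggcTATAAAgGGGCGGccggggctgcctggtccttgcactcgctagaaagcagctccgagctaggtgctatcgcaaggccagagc

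In the embryonic response 15 of the 37 genes were called, 8 higher and 7 lower, where 14.4% of all genes were called (8.61% higher and 5.74% lower). In the postnatal response 9 were called, 7 higher and 2 lower, where 16% of all genes were (9.56% and 6.40%). Without postnatal control arrays 4 and 5 this count was 10, 6 higher and 4 lower, where 16.5% of all genes were called (9.25% and 7.26%), with Mmp14 and Adamts9 gained as lower calls and Adamts5 lost as a higher one. The groups did not overlap for 16 of the 37 genes in the embryonic comparison, against 34.8% of all genes, and for 10 in the postnatal one, against 32.2%. The median log2 change of the 37 genes was 0.38 in the embryonic response, beside 0.075 over all genes, and 0.15 in the postnatal response, beside -0.0024. With genes at background set to the smallest change that their signals allow, these medians of the 37 genes were 0 and 0.013. Mmp23 and Adamts4 were called higher in both responses, Adamts4 in the embryonic one at the 2-fold limit and not by its other probe set. No gene was called lower in both, and Mmp17 and Adamts5 were lower in the embryonic and higher in the postnatal response.

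The inhibitors of the embryonic cells moved apart. Timp1, a soluble inhibitor that also binds the precursor of Mmp9, had signals of 6354, 5649, 6869.8, 6005 and 5238 on the 5 transduced arrays and 839, 1145, 870.4, 827 and 939 on the 5 embryonic control arrays. All transduced arrays lay above all controls, a log2 change of 2.69 ± 0.55 (limma adjusted p = 0.000373). The SD of the log2 values was 0.15 in transduced and 0.19 in embryonic control cells, but 1.85 in postnatal control, which shares the fit. Without postnatal control arrays 4 and 5 the standard error of the embryonic change was 0.20 (adjusted p = 2.31e-10). Timp3, which stays bound to the matrix and also inhibits ADAMTS4 and ADAMTS5, went the other way, with 563, 683, 610.1, 471 and 662 after transduction and 2385, 2521, 3423, 2402 and 2334 in embryonic control. The groups did not overlap, and Timp3 fell by 2.10 ± 0.26 on the log2 scale (adjusted p = 9.21e-07). Timp4, an inhibitor found mainly in brain and heart, read 2429.6, 2239.9, 1659, 1573 and 1099 in transduced and 18546, 14428, 16972, 16561 and 18546 in embryonic control cells. It fell by 3.28 ± 0.15 on the log2 scale (1.26e-13), and every transduced array was below every control. This was the largest fall among the 37 genes in this response by the probe set used for each. A probe set of Adamts5 that was not the one used fell further (-5.50 ± 0.28), with all transduced arrays below background. Timp2, which inhibits MMPs and also helps Mmp14 to activate Mmp2, had 5845, 5267, 4938, 4653 and 5683 in transduced cells, against 6653, 7157, 5818, 5015 and 5476 in embryonic control cells. These ranges overlapped, with a log2 change of -0.18 ± 0.10 (0.179).

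In postnatal cells the TIMP called was Timp2. It read 20992, 19308, 19927, 16751 and 18932 on the transformed arrays, against 10222, 9155, 7641, 7237 and 7755 on the postnatal control arrays. Transformed signals were all above the controls, with a log2 change of 1.2 ± 0.10 (adjusted p = 2.92e-09). Timp4 had 9469, 9607, 9732, 9939 and 9796 in transformed and 9160.1, 10449.9, 7589.7, 11686 and 9704 in postnatal control cells, and the transformed values lay inside the control range (log2 change 0.013 ± 0.15, 0.961, and 0.11 ± 0.17, 0.662, without control arrays 4 and 5). Timp3 had 3000.0, 2729.5, 3063, 2190.5 and 2720.3 in transformed cells, against 4024, 1917, 1217, 4189.8 and 4535 in postnatal control, with control arrays 2 and 3 lowest (log2 change -0.052 ± 0.26, 0.905, and 0.36 ± 0.24, 0.256, without control arrays 4 and 5). Timp1 was dim after transformation, at 139, 297, 342, 198 and 332, and in postnatal control, at 546, 639, 374, 12.4 and 172. It was above background on 4 of 5 arrays in each of these groups, and control arrays 4 and 5 were the lowest (log2 change 0.15 ± 0.55, 0.867). Without them the direction turned, to -0.99 ± 0.24 (0.00139), just under a 2-fold fall.

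Probe sets of the same TIMP gave like results for the called changes. The other 3 of Timp3 had embryonic log2 changes of -1.29 ± 0.26, -1.67 ± 0.23 and -1.43 ± 0.21, all called, and the second of Timp4 had -3.19 ± 0.33. Of the 6 Timp2 probe sets, 5 were called higher in the postnatal response, with log2 changes from 1.02 ± 0.086 to 1.42 ± 0.17, and the sixth was not above background on any postnatal array. In the embryonic response none of the 6 was called. The bright ones beside the one used had small falls of -0.44 ± 0.080 (limma adjusted p = 0.000105), -0.33 ± 0.086 (0.00427), -0.28 ± 0.10 (0.0459) and -0.18 ± 0.17 (0.460). An interaction term, the postnatal minus the embryonic change, was called for all 4 TIMP genes, where 19.1% of all genes were called. It was -2.54 ± 0.78 for Timp1, 1.38 ± 0.15 for Timp2, 2.04 ± 0.37 for Timp3 and 3.29 ± 0.21 for Timp4, with limma adjusted p of 0.0117, 9.53e-08, 0.000108 and 6.77e-11. Transduction and transformation are different procedures, and their part in it cannot be told apart from that of age.

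**Figure D2:**
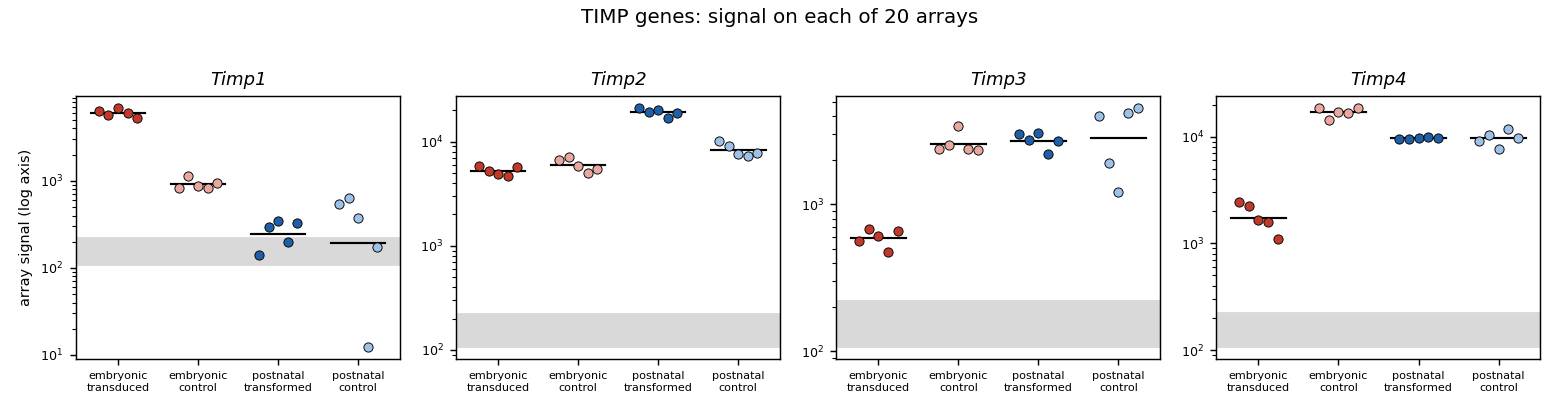
Signal of the 4 TIMP genes on each array (points; log axis) in the 4 groups, with the geometric mean of 5 arrays as a line and the range of the background level over arrays in grey. Timp1 is high and Timp3 and Timp4 are low on the embryonic transduced arrays, and Timp2 is high on the postnatal transformed arrays.

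The membrane-type MMPs also differed in direction. Mmp14 (MT1-MMP), which cuts collagen at the cell surface and activates the Mmp2 precursor, read 2374, 2243, 2665, 2693 and 2934 in transduced cells, against 1045, 931, 1148, 756 and 1168 in embryonic control. Its groups did not overlap (log2 change 1.35 ± 0.29, limma adjusted p = 0.000611), and its other probe sets gave 1.42 ± 0.31 and 1.78 ± 0.50. Transformed cells had 508, 674, 506, 619 and 697, against 3036, 1608, 620.1, 1000.1 and 705 in postnatal control. The spread of the controls was wide, with array 1 highest, and the log2 change of -0.95 ± 0.29 (0.0103) fell short of 2-fold. Without control arrays 4 and 5 it was -1.26 ± 0.30 (0.0013) and called. Mmp14 lies on chromosome 14, whose 354 genes with a mean signal over 500 had a median postnatal log2 change of -0.86 and a median embryonic one of 0.049, while every other autosome had a postnatal median from -0.22 to 0.20. The part of this in the postnatal change of Mmp14 was not tested.

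Mmp16 (MT3-MMP) had 666, 529, 468, 599.6 and 667 in transduced and 1228, 1702, 1598, 1984 and 1626 in embryonic control cells. All transduced arrays were lower, by a log2 change of -1.44 ± 0.13 (5.97e-09), and its 3 other probe sets ranged from -2.72 ± 0.24 to -2.24 ± 0.20. In transformed cells it read 6971, 7312, 6811, 6174 and 7535, against 3989.9, 3696, 4823, 3295 and 3397 in postnatal control. These groups did not overlap either, but at 0.87 ± 0.13 (8.05e-06) the change was under 2-fold, and the other probe sets gave 1.11 ± 0.24, 1.09 ± 0.21 and 0.025 ± 0.20, the first pair called and the last not. Mmp17 (MT4-MMP), held in the membrane by a lipid anchor, had 528, 454, 454, 548 and 731 in transduced and 1114, 1066, 1281, 1148 and 1024 in embryonic control cells. Transformed cells had 4185, 4641, 4739, 4397 and 4451, against 1464, 1587, 1678, 883 and 1133 in postnatal control. Neither pair of groups overlapped, with an embryonic log2 change of -1.05 ± 0.16 (1.07e-05) and a postnatal one of 1.76 ± 0.16 (5.52e-09), and the difference of 2.81 ± 0.22 passed its test (1.33e-09). The embryonic change of Mmp17 is close to the 2-fold limit, and it was under it, at -0.99, with an offset of 64. Mmp24 (MT5-MMP), known from neurons, was not called, with signals from 171 to 731 over the 20 arrays.

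Among secreted MMPs, Mmp2 (gelatinase A), which degrades denatured collagen and basement membrane, read 507, 432, 626, 471 and 488 on transduced and 1771, 2203, 2089, 1836 and 1859.5 on embryonic control arrays. It was lower on every transduced array (log2 change -1.92 ± 0.22, adjusted p = 2.26e-07, and -2.24 ± 0.31 by its other probe set). In postnatal cells the signals were 605, 539, 530.0, 428 and 799 after transformation and 834, 532, 349, 358 and 358 in control, which overlapped (log2 change 0.30 ± 0.22, 0.301, and 0.077 ± 0.24, 0.848, without control arrays 4 and 5). Mmp9 (gelatinase B), made by inflammatory cells among others, was above background on 2, 4, 1 and 2 arrays of embryonic transduced, embryonic control, postnatal transformed and postnatal control cells and was not called in either response. Mmp11 (stromelysin-3), which is activated inside the cell by furin, had 1025, 762, 1079.7, 918 and 1032 after transduction, against 339.9, 486, 371, 495 and 426 in embryonic control. The groups did not overlap (log2 change 1.16 ± 0.39, 0.0225), but the call was lost with an offset of 1 (adjusted p = 0.0588) and without embryonic control array 1 (0.0519). In postnatal cells Mmp11 was dim, with mean signals of 130.4 ± 65.0 after transformation and 101 ± 59.8 in control (SD, n = 5 each), above background on 2 and 1 arrays, and the fitted change, 0.42 ± 0.39 with all arrays and -0.16 ± 0.35 without control arrays 4 and 5, was not called either way.

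Mmp19, a secreted MMP found in many tissues, showed the largest fitted rise of the 37 genes in the postnatal response. It read 2337, 2154, 2292, 2055 and 2680.3 on the transformed arrays and 169, 34.1, 73.3, 64.4 and 30.8 on the postnatal control arrays, of which 1 was above background, and was called higher (limma adjusted p = 1.41e-07). Its second probe set had mean signals of 1802 after transformation and 101 in control. In embryonic cells no array was above background, with 9.86, 177, 191, 122 and 43.1 after transduction and 68.2, 141, 66.9, 9.01 and 63.7 in control. Mmp23, an MMP anchored by its propeptide that lacks the usual hemopexin domain, had 661, 553, 1042, 632 and 636 on transduced arrays and 32.4, 55.5, 22.6, 26.6 and 25.0 on embryonic control arrays. Control was below background throughout, so that the rise was at least 4.11-fold (limma adjusted p = 8.29e-09). Postnatal signals were 112, 452, 188, 383 and 429 after transformation, 4 of 5 above background, and 45.4, 21.4, 42.6, 37.5 and 31.3 in control, none above it. This rise was at least 1.85-fold (3.75e-06), and the second Mmp23 probe set was called higher in both responses.

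**Figure D3:**
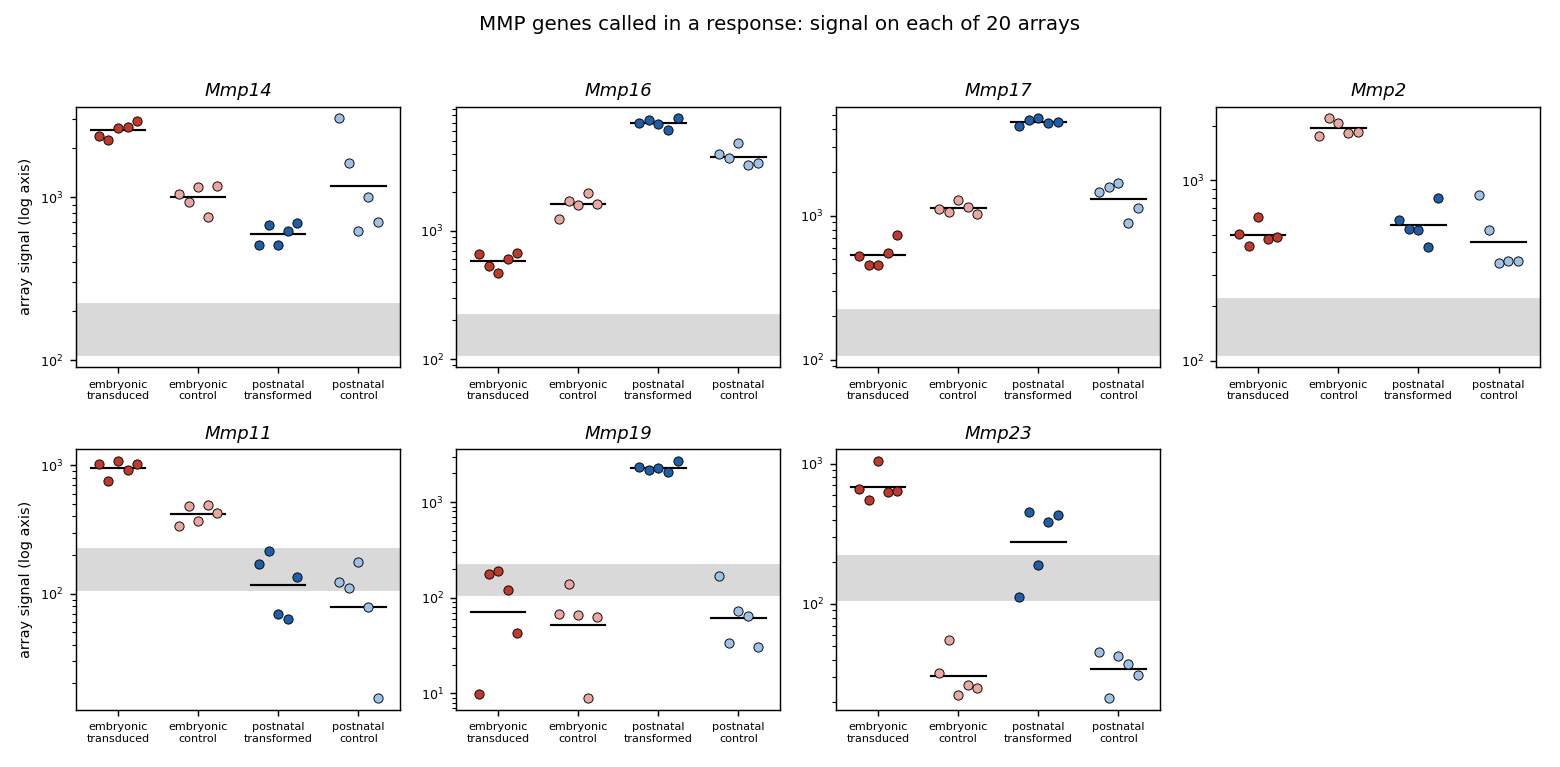
Signal of the 7 MMP genes called in a response on each array (points; log axis), with the geometric mean of 5 arrays as a line and the range of the background level in grey. Mmp19 is above background on the 5 postnatal transformed arrays and on 1 of the 15 other arrays, and Mmp23 is below it on all 10 control arrays.

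Genes of the proteoglycanase ADAMTS enzymes, which cut lecticans such as aggrecan, brevican and versican, rose in 2 of 7 cases and fell in 1 in the embryonic response, and rose in 3 and fell in 1 in the postnatal response, where 14.4% and 16% of all genes were called. Adamts1 read 25904, 23850.2, 26378, 24191 and 25230.2 on transformed arrays, against 2343, 3206, 3324, 2227 and 2252 on postnatal control arrays. No transformed array came near the controls, a log2 change of 3.25 ± 0.10 (limma adjusted p = 4.03e-16). In embryonic cells Adamts1 had 3064, 3539, 3757, 3556 and 3204 after transduction and 2428, 2959.8, 2485, 2532 and 2699 in control, and although these did not overlap the log2 change was 0.38 ± 0.10 (0.00446), under 2-fold. Adamts4 (aggrecanase-1) had 2189.5, 2348, 2404, 2643 and 2832 after transformation and 432, 685, 299, 480.2 and 516 in postnatal control. It was higher on all transformed arrays (log2 change 2.37 ± 0.20, 2.12e-09), also by its other probe set (1.61 ± 0.35). Transduced cells had 1472, 1503, 1594, 1299 and 1389, against 573, 1041, 604, 964 and 533 in embryonic control, groups that did not overlap. The log2 change of 1.0 ± 0.20 (0.000284) lay at the 2-fold limit and was 0.82 after quantile normalization, under it. By the other probe set the embryonic change was 0.83 ± 0.35 (0.0784), not called.

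Adamts5 (aggrecanase-2), the neighbour of Adamts1 on chromosome 16, had 355, 269, 417, 509 and 478 on transduced arrays and 3706, 3556, 3782, 3324 and 3232 on embryonic control arrays. It was lower on each transduced array, by a log2 change of -3.10 ± 0.19 (1.28e-11). In postnatal cells it read 5185, 5097, 5323, 4633 and 5531 after transformation and 2884, 2646, 3577, 1615 and 1602 in control, the lowest of which were arrays 4 and 5. The groups did not overlap (log2 change 1.13 ± 0.19, 3.47e-05), but without control arrays 4 and 5 the change was 0.77 ± 0.15 (0.000175), below 2-fold. The opposite directions were called by 3 of its 4 probe sets, with embryonic log2 changes of -5.50 ± 0.28, -2.18 ± 0.23 and -3.10 ± 0.19 and postnatal ones of 1.02 ± 0.28, 1.15 ± 0.23 and 1.13 ± 0.19, while the fourth was below background on all arrays. The first of these was below background on all transduced arrays, so that its embryonic change depends on the offset. The difference of 4.23 ± 0.27 passed its test (4.05e-11).

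Adamts9, a versican-cutting enzyme, read 3904, 3807, 4029, 4251 and 3814 after transduction, against 1892, 1857, 1716, 1655 and 1746 in embryonic control. It was higher on every transduced array (log2 change 1.15 ± 0.31, 0.00423, and 1.15 ± 0.083, 8.69e-11, without postnatal control arrays 4 and 5). Its other probe sets gave 1.63 ± 0.51, called, and 0.35 ± 0.26, not called. Transformed cells had 1372, 1286, 1545, 1250.2 and 1161 and postnatal control cells 3329, 3449.7, 3874, 843 and 982. Transformed signals lay between those of control arrays 1 to 3, which were higher, and of arrays 4 and 5, which were lower. The change was not called (-0.64 ± 0.31, 0.105) with all arrays and was called without arrays 4 and 5 (-1.42 ± 0.096, 2.60e-11). With all arrays, the second probe set was called lower, at mean signals of 133 in transformed cells, above background on 2 of 5 arrays, and 599 in postnatal control, and the third was not called (-0.57 ± 0.26). Adamts20, the gene mutated in belted mice, which have a white belt of unpigmented skin, had 409, 297, 379, 309 and 248 after transformation and 737, 1328, 1005, 663 and 659.6 in postnatal control. All transformed arrays were lower (log2 change -1.34 ± 0.26, 0.000213). In embryonic cells the signals overlapped, 707, 809.6, 524, 619 and 1014 after transduction and 351, 448, 386, 377 and 876 in control (0.63 ± 0.26, 0.0647). Adamts8 and Adamts15, neighbours on chromosome 9, were not called in either response, with signals up to 472 and 373.

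Of the ADAMTS enzymes with other substrates, Adamts10 and Adamts6, a closely related pair tied to fibrillin microfibrils, rose in transduced cells. Adamts10 read 4511, 4766, 4442, 5194 and 5346 on transduced arrays, against 1369, 2001, 1622, 1862 and 1719 on embryonic control arrays. Adamts6 read 1956, 1941, 1973, 1889.5 and 1782 on transduced arrays, against 758, 669, 581, 666 and 732 on embryonic control arrays. Neither gene had overlapping groups, and the log2 changes were 1.5 ± 0.13 (4.22e-09) and 1.47 ± 0.15 (5.89e-08). The second probe set of Adamts10 gave 1.24 ± 0.36, called. That of Adamts6 was not called (0.0863), with mean signals of 326 in transduced and 153 in embryonic control cells, above background on 5 and 3 arrays. In postnatal cells Adamts10 had 1392, 1874, 1336, 1459.7 and 1395 after transformation and 1639, 1425, 1444, 1004 and 1197 in control (0.16 ± 0.13, 0.375, and -0.019 ± 0.12, 0.932, without control arrays 4 and 5). There Adamts6 had 816, 879, 883, 1140.2 and 854 after transformation and 443, 571, 698, 828 and 684 in control (0.51 ± 0.15, 0.00842), and neither was called. The second Adamts6 probe set went the other way without a call (0.123), with mean signals of 74.6 after transformation and 160 in control, above background on 1 and 2 arrays. Adamts3, which removes the N-propeptide of procollagens and takes part in activation of the growth factor VEGF-C, read 459, 568, 311, 421 and 331 after transduction and 1277, 790.2, 1299, 1054 and 922 in embryonic control. It was lower on all transduced arrays (-1.33 ± 0.32, 0.00173). In postnatal cells its signals were 445, 403, 411, 484 and 525 after transformation and, in control, 752, 1009, 910.0, 393 and 205, which overlapped (-0.31 ± 0.32, 0.492). Without control arrays 4 and 5, the lowest, the change was -0.94 ± 0.23 (0.00177), still under 2-fold.

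Adamts7, which cuts the cartilage matrix protein COMP, had 151, 169.7, 297, 66.6 and 151 after transformation, above background on 2 of 5 arrays, and 731, 523, 486, 253 and 398 in postnatal control. It was called lower (adjusted p = 0.000232), although the highest transformed array passed the lowest control array. In embryonic cells it read 911, 1163, 1359.6, 978 and 1406 after transduction and, in control, 1301, 1309, 1241, 1547 and 1027, which overlapped (-0.15 ± 0.29, 0.752). Adamts12, the closest relative of Adamts7, was not called in the embryonic response (0.34 ± 0.20) or the postnatal one (0.75 ± 0.20, 0.00441, and 0.46 ± 0.18, 0.0444, without control arrays 4 and 5). Adamts16 had signals from 82.1 to 1055 and Adamts18 from 5.74 to 210.0 over the 20 arrays, with no call in either response.

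**Figure D4:**
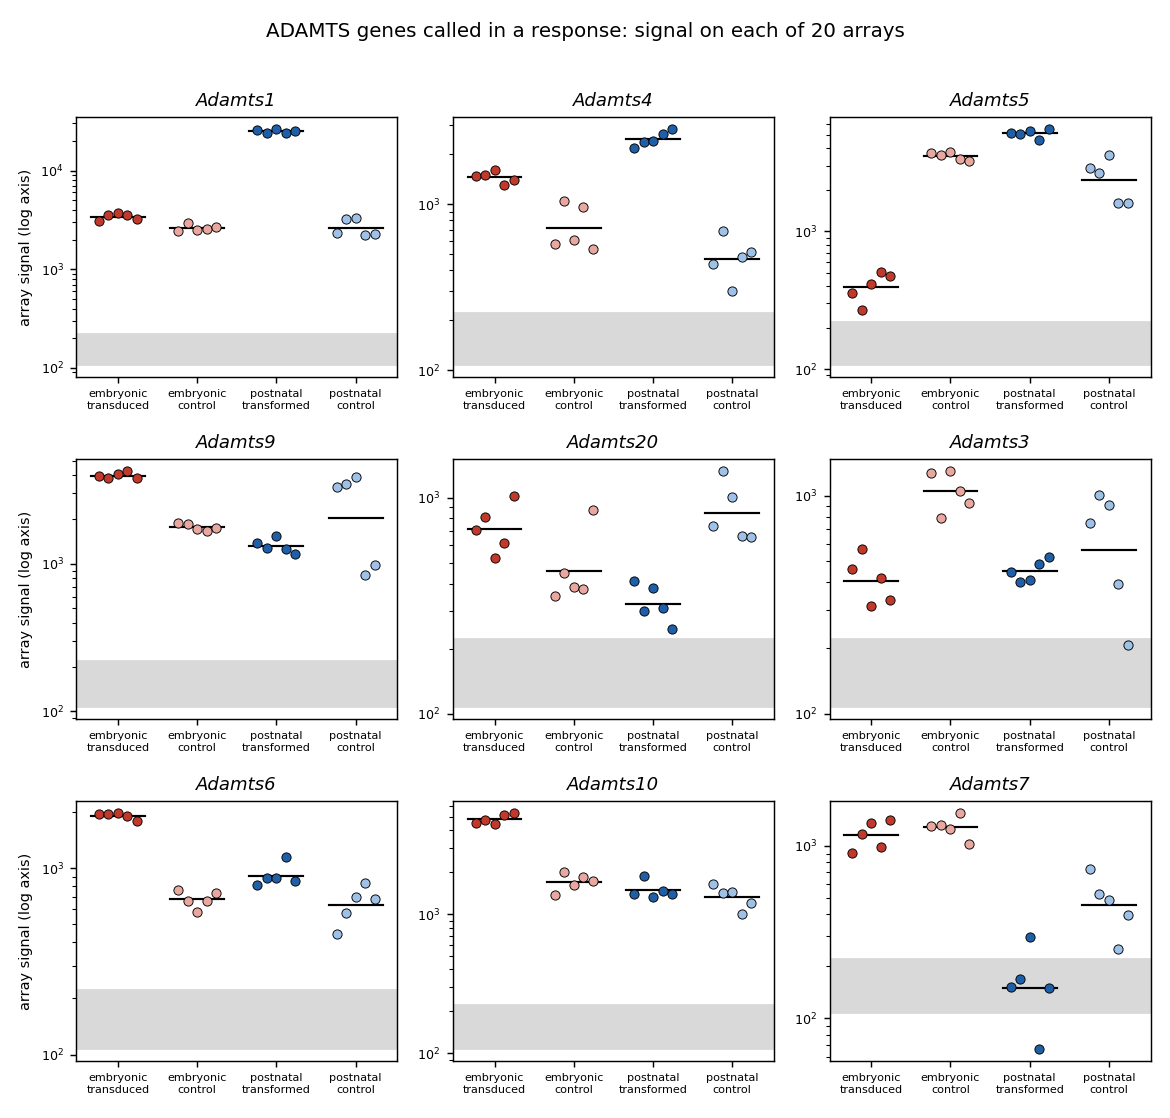
Signal of the 9 ADAMTS genes called in a response on each array (points; log axis), with the geometric mean of 5 arrays as a line and the range of the background level in grey. Adamts1 stands apart on the 5 postnatal transformed arrays and Adamts5 on the 5 embryonic transduced arrays. Arrays 4 and 5 are the lowest pair of postnatal control for 7 of the 9 genes, all but Adamts4 and Adamts6, and for 13 of all 37 genes. The share of all genes on the arrays with this order was not counted.

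Set against each other, the responses differed for 17 of the 37 genes, 10 positive and 7 negative as postnatal minus embryonic, where 19.1% of all genes passed (9.36% and 9.75%). Without postnatal control arrays 4 and 5 the Mmp23 difference was not called (0.0674) and that of Mmp11 was (-1.32 ± 0.47, 0.0253). The largest fitted differences were in Mmp19 and Adamts5, followed by Timp4. For Adamts10 the difference was -1.34 ± 0.18 (3.87e-06), for Mmp14 -2.30 ± 0.41 (8.86e-05) and for Mmp2 2.23 ± 0.31 (3.97e-06).

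**Figure D5:**
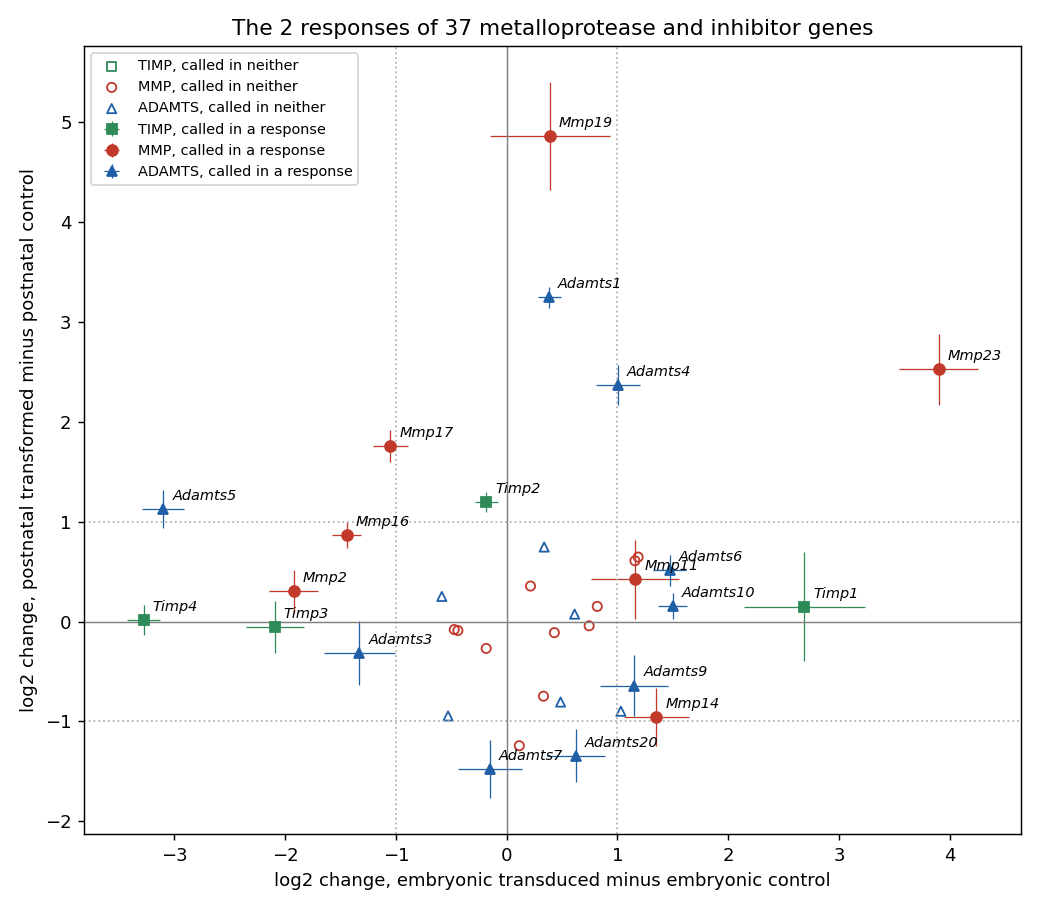
Log2 change of each of the 37 genes in the embryonic response (x axis) and in the postnatal response (y axis), with bars of 1 standard error for the 20 genes called in a response (filled) and open symbols for the 17 called in neither. Dotted lines mark a 2-fold change, and Adamts5 and Mmp17 lie beyond it to the left and at the top, with Adamts4 and Mmp23 at the upper right.

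Before modification the progenitors of both ages already differed in 6 of the 37 genes, 1 higher and 5 lower in postnatal control, where 10.6% of all genes were called (4.86% and 5.72%). The groups did not overlap for 8 of the 37 genes, against 22.2% of all genes. Age and any difference in region, culture or preparation cannot be told apart here. Mmp16 was higher in postnatal than in embryonic control (log2 change 1.23 ± 0.13, limma adjusted p = 1.73e-07). Mmp2 (-2.05 ± 0.22, 2.16e-07), Adamts12 (-2.40 ± 0.20, 7.81e-09) and Adamts7 (-1.46 ± 0.29, 0.000496) were lower. Mmp11 was lower too (0.000247), with mean signals of 101 ± 59.8 in postnatal control, above background on 1 of 5 arrays, and 423 ± 68.5 in embryonic control. Adamts12 read 381, 315, 234, 134 and 238 in postnatal control, against 1212, 1605, 1316, 1349 and 1395 in embryonic control, with no overlap. Timp1 was called lower at -1.97 ± 0.55 (0.00799), but without postnatal control arrays 4 and 5 its change was -0.83 ± 0.24 (0.0106), under 2-fold, while Adamts20 was then called higher (1.09 ± 0.30, 0.00882).

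Between the modified cells, postnatal transformed against embryonic transduced, 21 genes were called, 8 higher and 13 lower, where 25.5% of all genes were (11.7% and 13.7%). Among the lower calls Mmp1a, Mmp8 and Adamts19 were near background in both groups, above it on 0 of 5 postnatal transformed arrays and at most 1 of 5 embryonic transduced arrays. Mmp16 (3.54 ± 0.13), Adamts5 (3.65 ± 0.19), Mmp17 (3.03 ± 0.16), Adamts1 (2.87 ± 0.10), Timp4 (2.47 ± 0.15), Timp3 (2.17 ± 0.26) and Timp2 (1.86 ± 0.10) were higher in transformed cells, with adjusted p of at most 2.65e-07, and Mmp19 was at least 12.5-fold higher. Timp1, above background on 4 of 5 transformed arrays, had a log2 change of -4.51 ± 0.55, and Mmp23, also on 4 of 5, one of -1.26 ± 0.35 (0.00449). Mmp11 and Adamts7, each above background on 2 of 5 transformed arrays, were lower as well, with mean signals of 130.4 ± 65.0 in transformed and 963 ± 127 in transduced cells for Mmp11 and of 167 ± 83.0 and 1163 ± 221 for Adamts7. Mmp14 (-2.08 ± 0.29), Adamts10 (-1.70 ± 0.13), Adamts12 (-1.99 ± 0.20), Adamts9 (-1.58 ± 0.31), Adamts20 (-1.11 ± 0.26) and Adamts6 (-1.06 ± 0.15) were also lower, with adjusted p of at most 0.00103. The groups did not overlap for 19 of the 37 genes, against 46.6% of all genes. These changes compare groups already used above and are no separate evidence.

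Lists of genes that act beside these enzymes were counted too, beside 14.4% of all genes called in the embryonic response (8.61% higher and 5.74% lower) and 16% in the postnatal one (9.56% and 6.40%). In the list of other inhibitors and clearance 1 of 8 genes rose and 1 fell in the embryonic response, and 1 fell in the postnatal response. A2m, which traps proteases of every class, was called in both, with mean signals of 3997 ± 427 in transduced and 316 ± 218 in embryonic control cells and 128 ± 83.0 in transformed and 662 ± 699 in postnatal control cells, above background on 5, 3, 1 and 5 arrays. Spock3, a testican that was called lower in embryonic cells, was above background on 0 transduced and 2 embryonic control arrays, with mean signals of 39.7 ± 42.8 in transduced and 185 ± 52.0 in embryonic control cells. Reck, a membrane inhibitor of MMPs, had log2 changes of 0.71 ± 0.15 (0.000597) in the embryonic and -0.89 ± 0.15 (4.45e-05) in the postnatal response, both under 2-fold. Of 5 proconvertases and MMP inducers 1 was called, Bsg (CD147), which induces MMPs in neighbouring cells, at 1.71 ± 0.069 (1.22e-14) in transduced cells.

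In the plasminogen activator system, whose product plasmin activates MMPs, 1 of 8 measured genes rose in the embryonic and 3 in the postnatal response, with none lower, beside 8.61% and 9.56% of all genes called higher. Anxa2 and S100a10 together form a plasminogen receptor. Anxa2 had log2 changes of 2.56 ± 0.14 (3.05e-12) in the embryonic and 4.28 ± 0.14 (1.10e-15) in the postnatal response. S100a10 rose by 2.39 ± 0.36 (9.76e-06), and by 1.47 ± 0.096 (1.57e-11) without postnatal control arrays 4 and 5, and the urokinase receptor Plaur by 1.37 ± 0.24 (5.97e-05) in postnatal cells. Among lecticans, the substrates of Adamts4 and Adamts5, neurocan (-1.56 ± 0.17, 8.79e-08) and versican (-1.23 ± 0.15, 6.12e-07) fell in the embryonic response, 2 of 4, and none was called in the postnatal response. Of 5 ADAMTS-like genes, which encode relatives without the protease domain, Adamtsl1 was called in both responses, with mean signals of 531 ± 92.1 in transduced and 51.7 ± 38.4 in embryonic control cells and 285 ± 50 in transformed and 54.4 ± 65.4 in postnatal control cells, above background on 5, 0, 5 and 1 arrays.

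In the ADAM family, membrane proteases that shed the outer part of cell surface proteins, 1 of 12 genes rose and 1 fell in the embryonic response, and 3 rose and 1 fell in the postnatal response, where 14.4% and 16% of all genes were called. Adam12 fell by 2.74 ± 0.21 on the log2 scale (5.85e-10) in transduced cells and rose by 1.83 ± 0.21 (2.41e-07) in transformed cells. Adam15 rose by 1.10 ± 0.10 (1.02e-08) in transduced cells and Adam23, an ADAM without protease activity, by 2.0 ± 0.21 (6.14e-08) in transformed cells. Adam19 rose there by 1.16 ± 0.26 (0.000901), but without postnatal control arrays 4 and 5 its change was 0.53 ± 0.12 (0.000765), under 2-fold, which leaves 2 of 12 higher. In the family of the procollagen C-proteinase Bmp1, 1 of 5 genes was called lower in the embryonic response, and 1 rose and 1 fell in the postnatal response. Bmp1 fell by 1.74 ± 0.15 on the log2 scale (2.14e-09) in transformed cells. It lies on chromosome 14 like Mmp14, where the median postnatal log2 change was -0.86, and the part of this in its fall was not tested. Its enhancer Pcolce had mean signals of 13514 ± 726 in transformed and 168 ± 125 in postnatal control cells, above background on 5 and 3 arrays. The gene called lower in embryonic cells, Tll1, was above background on no embryonic array.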

How the data were processed

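The authors deposited linear intensity values, with a signal for each probe set on each array. How they corrected background and normalized, and with which software, was not given in the sources used here. After trimming 2% at each end, array means lay between 2500.01 and 2500.02, so the intensities were used as deposited. Among 190 pairs of arrays no 2 were identical. Platform annotation gave 1 symbol to 34945 of 45101 probe sets, and all 37 genes were found in a RefSeq table of GRCm38.p6, used for gene order. A linear model of 4 group means on log2(signal + 16) was fitted over 20 arrays with limma 3.58.1 in R 4.3.3 (lmFit, eBayes with an intensity trend; two-sided; Benjamini-Hochberg), read with data.table (version 1.17.8). Its embryonic contrast alone was run on simulated data, with the same spread of a gene in all groups. The real groups differ in spread, with a median SD per gene of 0.20 in postnatal transformed and 0.36 in postnatal control cells, so the simulation does not test the fit in that respect. Promoters were searched with Python 3.11.15 and pandas 2.3.3, and plots drawn with matplotlib 3.10.9.

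For a gene below background on every array of 1 group, an "at least" fold is given, from the brighter group's mean log2 signal and, per array of the dimmer group, the larger of its background and its own signal. Where it was above on 1 to 3 arrays, mean signals are given, since the fitted change depends on the offset. Values on every array are given for genes called in a response and for the TIMPs, and up to 4 called genes with the smallest p were named per list beside those singled out after their values were seen (Reck, Tll1). Genes and lists were chosen with earlier results of these data known. The number of arrays, 5 per group, limits the precision.

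Alternatives were quantile normalization, centring on the 75th percentile, offsets of 1 and 64, a filter on dim genes, the mean of all probe sets or each on its own, no intensity trend, no fold threshold, a replicate block, leaving out each array, and leaving out postnatal control arrays 4 and 5.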

Additional observations from a re-analysis of the deposited data

Results flagged for a closer look

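The responses differed by the interaction test in 17 genes, given here as the postnatal minus the embryonic log2 change. It was positive for Timp2 (1.38), Timp3 (2.04), Timp4 (3.29), Mmp2 (2.23), Mmp16 (2.31), Mmp17 (2.81), Mmp19 (4.48), Adamts1 (2.86), Adamts4 (1.36) and Adamts5 (4.23). It was negative for Timp1 (-2.54), Mmp14 (-2.30), Mmp23 (-1.37), Adamts7 (-1.33), Adamts9 (-1.79), Adamts10 (-1.34) and Adamts20 (-1.97). The values of Mmp19, Mmp23 and Adamts7 are fitted ones, because these genes lay near background in at least 1 group.

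In 5 of 72 groups of arrays tested, 1 array lay apart from the other 4, and chance gives about 1 in 20 such groups. These were Timp3 on embryonic control array 3 (signal 3423), Mmp23 on embryonic transduced array 3 (1042), Adamts6 on postnatal transformed array 4 (1140.2), Adamts10 on postnatal transformed array 2 (1874) and Adamts20 on embryonic control array 5 (876), each above the rest of its group.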

How the results depend on the processing

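Of 41 called changes of single genes (2 responses and their difference), 35 stayed called under all 30 alternatives and none changed direction. The exceptions were the embryonic changes of Mmp11, Mmp17 and Adamts4, the postnatal change of Adamts5 and the differences of Timp1 and Mmp23. This score leaves out the separate values of a gene's other probe sets, and dropping the fold threshold cannot lose a call. By another probe set the embryonic changes of Adamts6 (limma adjusted p = 0.0863) and Adamts9 (0.356) were not called. Adamts4 was called in 20 of 30 alternatives (log2 change 0.82 to 1.14) and the Mmp23 difference in 18 of 30 (-1.54 to -1.07). Calls were lost by leaving out single arrays for Mmp17 (transduced array 2 or 3, log2 change -0.99 each), Adamts5 (postnatal control array 4 or 5, 0.996 and 0.993), Adamts4 (transduced array 1, 2 or 3 or embryonic control array 1, 3 or 5, lowest 0.90) and the Mmp23 difference (transduced array 3, embryonic control array 3, 4 or 5, transformed array 1 or 3, postnatal control array 1 or 3, adjusted p 0.0526 to 0.0687). The Timp1 difference missed the threshold with an offset of 1 (adjusted p = 0.0513). Leaving out single arrays gave 13 to 16 called genes in the embryonic response, 9 to 11 in the postnatal response, 16 to 19 in the difference, 6 to 7 between the controls and 18 to 22 between the modified cells. Without a fold threshold 13 genes in place of 6 were called between the controls, where 32.0% of all genes in place of 10.6% were. Among the called genes of the other lists, an alternative chosen after seeing the data, leaving out postnatal control arrays 4 and 5, lost Adam19 in the postnatal response and kept the rest. With the replicate number as a block, the counts were 15, 9, 17, 6 and 21, as without it, and of the 41 single changes the Mmp23 difference was lost (adjusted p = 0.0913). Same-numbered arrays did not pair: their deviations from group means correlated at r from -0.053 to 0.032. No scaling turned a direction among these changes, and the largest shift of the median of all genes was 0.11 on the log2 scale, for the difference of responses after centring on the 75th percentile (at most 0.1 elsewhere). Signal over background limits Mmp19, Mmp23, Mmp11, Adamts7 and Timp1 in the groups where they are dim. With the highest bacterial probe set as background, 20, 20, 18 and 18 genes were above it on all 5 arrays in embryonic transduced, embryonic control, postnatal transformed and postnatal control cells.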
